A study of Mus musculus with 44 samples.

Results

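The collagens other than type I, together with the enzymes and chaperones that process collagen, were followed through mouse calvarial osteoblast cultures that had been sorted for a green fluorescent protein (GFP) reporter. The genes were chosen by symbol: every gene on the arrays named as a collagen chain except Col1a1 and Col1a2, and the processing genes P4ha1, P4ha2, P4hb, Plod1, Plod2, Plod3, Lox, Loxl1, Serpinh1, Pcolce, Pcolce2, Bmp1 and Crtap. Loxl2, also in that list, had no probe set of its own in the annotation used here and was not analysed. The genes came to 51 of the 15964 genes that a probe set named alone, 38 of them collagens and 13 of them processing genes, with 97 probe sets in all. Of the collagens, 8 were fibrillar, 9 network-forming, 8 fibril-associated (FACIT) and 4 transmembrane, and 9 fell in none of these classes, type VI among them.

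Calvarial cells of newborn mice, labelled as 7 days old, were grown for 7 or 17 days, in serum-containing DMEM throughout, and total RNA was profiled on Affymetrix arrays, with probe sets divided over array types A, B and C. The day 7 cultures had no additions. The day 17 cultures had received ascorbic acid and beta-glycerophosphate from day 7 on. At each day the cells were taken as a GFP-positive fraction, a GFP-negative fraction and an unsorted population, which gave 6 groups of 3 RNA samples. Each day had 3 experiments, and each experiment gave 1 sample to every group of its day. Day 7 comprised experiments Exp99, Exp101 and Exp103. Day 17 comprised Exp100, Exp105 and Exp106. The series title gives the reporter as pOBCol3.6GFP at day 7 and pOBCol2.3GFP at day 17, both built on promoter fragments of the type I collagen gene Col1a1, so that day, additions, reporter and experiment changed together and cannot be told apart. The strain was not given, and some samples were described as harvested with trypsin. Nothing in the labels said that the experiments used separate animals or cultures, so the p-values reflect how far these samples spread, which may be technical in part.

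Collagens are built from 3 chains wound in a triple helix. Fibrillar collagens (types II, III, V, XI and XXVII here) assemble into fibrils. In bone type I dominates these, and types V and XI set fibril diameter. FACIT collagens sit on fibril surfaces, network collagens form basement membranes (type IV) or the sheets of the type VIII lattice, and transmembrane collagens such as type XIII anchor cells to matrix. Before secretion, prolyl 4-hydroxylase (catalytic subunits P4ha1 and P4ha2, with P4hb) and the lysyl hydroxylases (Plod genes) modify the chains, and Serpinh1 (HSP47) and Crtap accompany their folding. After secretion, Bmp1 removes the C-propeptide with the help of Pcolce, and lysyl oxidases crosslink the fibrils. Ascorbic acid is a cofactor of the hydroxylases.

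The deposited values were hybridisation intensities. The mean of each array, after trimming 2% at each end, ran from 1069 to 1766 on array A, 1367 to 1723 on B and 1259 to 1606 on C. Experiment Exp106 stood apart from the others. On array A its sorted samples correlated with all other sorted samples, of both fractions and both days, at a mean of 0.839. Those other samples correlated with each other at a mean of 0.943. Results that rest on Exp106 are given with and without it. Unsorted RNA was compared on array A alone, which carried 39 of the 51 genes. Values below are quantile-normalised intensities, which have no absolute scale and are not compared between genes. Differences are on the log2(intensity + 32) scale, with the standard error from limma and n = 3 per group, and a gene was called at an adjusted p under 0.05 over all probe sets tested. Of the 51 genes, 38 lay above the median of their array on at least 3 arrays of the sorted samples and were tested. Of these, 28 lay above it on all 12 sorted arrays, and Col11a2 and Col13a1 did so on 4 of 12. For both genes these were the 3 day 17 GFP-positive samples and 1 day 17 GFP-negative sample. They thus passed the filter through the group in which they are called higher below.

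Markers of other cell types were read on the same arrays, and several differed between the groups compared. The summed normalised intensity of 16 macrophage genes (16 of 16 on array A) was 6947 to 7796 in day 7 GFP-positive samples and 15348 to 40757 in GFP-negative ones. At day 17 it was 24467 to 97092 in GFP-positive, 78821 to 139541 in GFP-negative and 195418 to 257546 in unsorted samples. The GFP-negative samples thus had the higher sums at day 7, while at day 17 the sums of the fractions overlapped. Gene by gene, the median difference, GFP-positive minus GFP-negative, was -1.63 at day 7, with 15 of 16 below 0 and none called. At day 17 it was -1.47, with 16 of 16 below 0. There 1 of the 14 tested genes was called lower. The 8 smooth muscle and pericyte genes summed to 12274 to 12906 in day 17 GFP-positive samples and 31975 to 47764 in GFP-negative ones, the 6 fibroblast genes to 8409 to 9646 and 32403 to 46598, and the 7 cartilage genes to 4225 to 5307 and 12428 to 28618. Over all 9 smooth muscle and pericyte genes the median difference between these fractions was 0.17, with 4 below 0. Of the 5 tested, 4 were called lower, against 1.54% of all genes tested. The fibroblast median over 7 genes was -2.38, with 6 below 0 and 3 of 6 tested genes called lower. Over all 10 cartilage genes on the 3 array types the median difference between these fractions was 0.21, with 4 below 0, and 1 of the 5 tested, Matn4, was called lower (-2.69, adjusted p = 0.00225). Acan, Matn1, Matn3, Hapln1 and Epyc lay below the median on every array. Among the 9 endothelial genes, Cdh5, Tek, Tie1, Flt1, Vwf and Cldn5 did so, and their sum was 1320 to 2012 in day 17 GFP-positive and 1193 to 2384 in GFP-negative samples. The osteoblast genes Alpl, Ibsp, Dmp1 and Phex summed to 74101 to 107656 in the day 17 GFP-positive fraction, 16317 to 36250 in the GFP-negative one and at most 2841 in any day 7 sample. They were the 4 measured of 10 listed osteoblast genes. Their median difference between the day 17 fractions was 2.16, with none below 0. None of the 3 tested was called, while 2 were called higher with the experiment as a block in the fit, against a background of 2.52%. In these bulk samples fewer cells of a type and less RNA per cell cannot be told apart, and the part that any of these cell types had in the results was not tested.

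At day 7 no collagen or processing gene differed between the GFP-positive and GFP-negative fractions beyond the spread of the samples. None of the 38 tested genes was called, against a background of 0% of the 10613 genes tested called higher and 0% called lower. By limma none of the 22099 probe sets passed, and 328 had an unadjusted p under 0.05, none of them representing a collagen or processing gene of the set. The median difference over the 51 genes was -0.08, against 0.01 over all genes.

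Differences within the classes were small at day 7, each with an adjusted p of 1. Col8a1, a chain of the type VIII network, stood at 15695, 11682 and 15644 in the GFP-positive samples of Exp99, Exp101 and Exp103 and at 9569, 6305 and 14864 in the GFP-negative ones. The fractions overlapped, and the difference was 0.56 ± 0.39. The basement membrane chains Col4a1 (0.09 ± 0.51) and Col4a2 (-0.06 ± 0.41) and the fibrillar chains Col3a1 (0.05 ± 0.44), Col5a1 (-0.02 ± 0.60), Col5a2 (0.06 ± 0.27), Col11a1 (-0.16 ± 0.30) and Col11a2 (0.04 ± 0.52) lay nearer to 0. The widest differences in the other classes were -0.39 ± 0.71 for Col5a3 (fibrillar), -0.55 ± 0.44 for Col9a1 (FACIT), -0.33 ± 0.57 for Col13a1 (transmembrane), -1.09 ± 0.64 for Col6a4 and 0.53 ± 0.31 for P4hb, the shared subunit of prolyl 4-hydroxylase. Col12a1 (-0.16), Col6a1 (-0.09), Serpinh1 (-0.08), P4ha1 (0.07), Plod2 (-0.02), Lox (0.00), Bmp1 (-0.12) and Pcolce (-0.25) completed the chains and enzymes named in every comparison. All 9 collagens outside the structural classes had a difference below 0, from -1.09 to -0.07. The signs at day 7 depended on Exp101: without its GFP-negative sample, Col3a1 stood at -0.46 and Col5a2 at -0.30. Where a gene had further tested probe sets, 11 of 33 had the sign of the one used at this day.

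At day 17 the fractions differed in 6 of the 38 tested genes. The GFP-positive fraction had lower levels of the type VIII chains Col8a1 and Col8a2, of the basement membrane chain Col4a1 and of the FACIT collagen Col14a1, and higher levels of the fibrillar chain Col11a2 and the transmembrane collagen Col13a1. These were 2 genes called higher, against a background of 0.424% of all genes tested, and 4 called lower, against 1.54%. Both genes called higher passed the filter through the GFP-positive samples of this day, so their number is not independent of the filter. None of the 12 tested processing genes was called. The 4 tested network collagens ran from -2.85 to -1.74, and the 5 untested, dim ones from -1.16 (Col4a5) to 0.12. Over whole classes, tested or not, the median difference was 0.22 for the 8 fibrillar collagens, of which 6 were above 0. It was -0.14 for FACIT, -0.17 for transmembrane, -0.63 for other collagens and 0.18 for the processing genes, against 0.02 for all genes. With the experiment as a block, 4 genes were called higher and 9 lower, against backgrounds of 2.52% and 4.42%. Fitted on the samples of these fractions alone, without day 7 to share the spread, 1 gene was called, Col8a2, while Col11a2 (adjusted p = 0.0663) and Col8a1 (0.0645) lay just over the threshold.

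**Figure D1:**
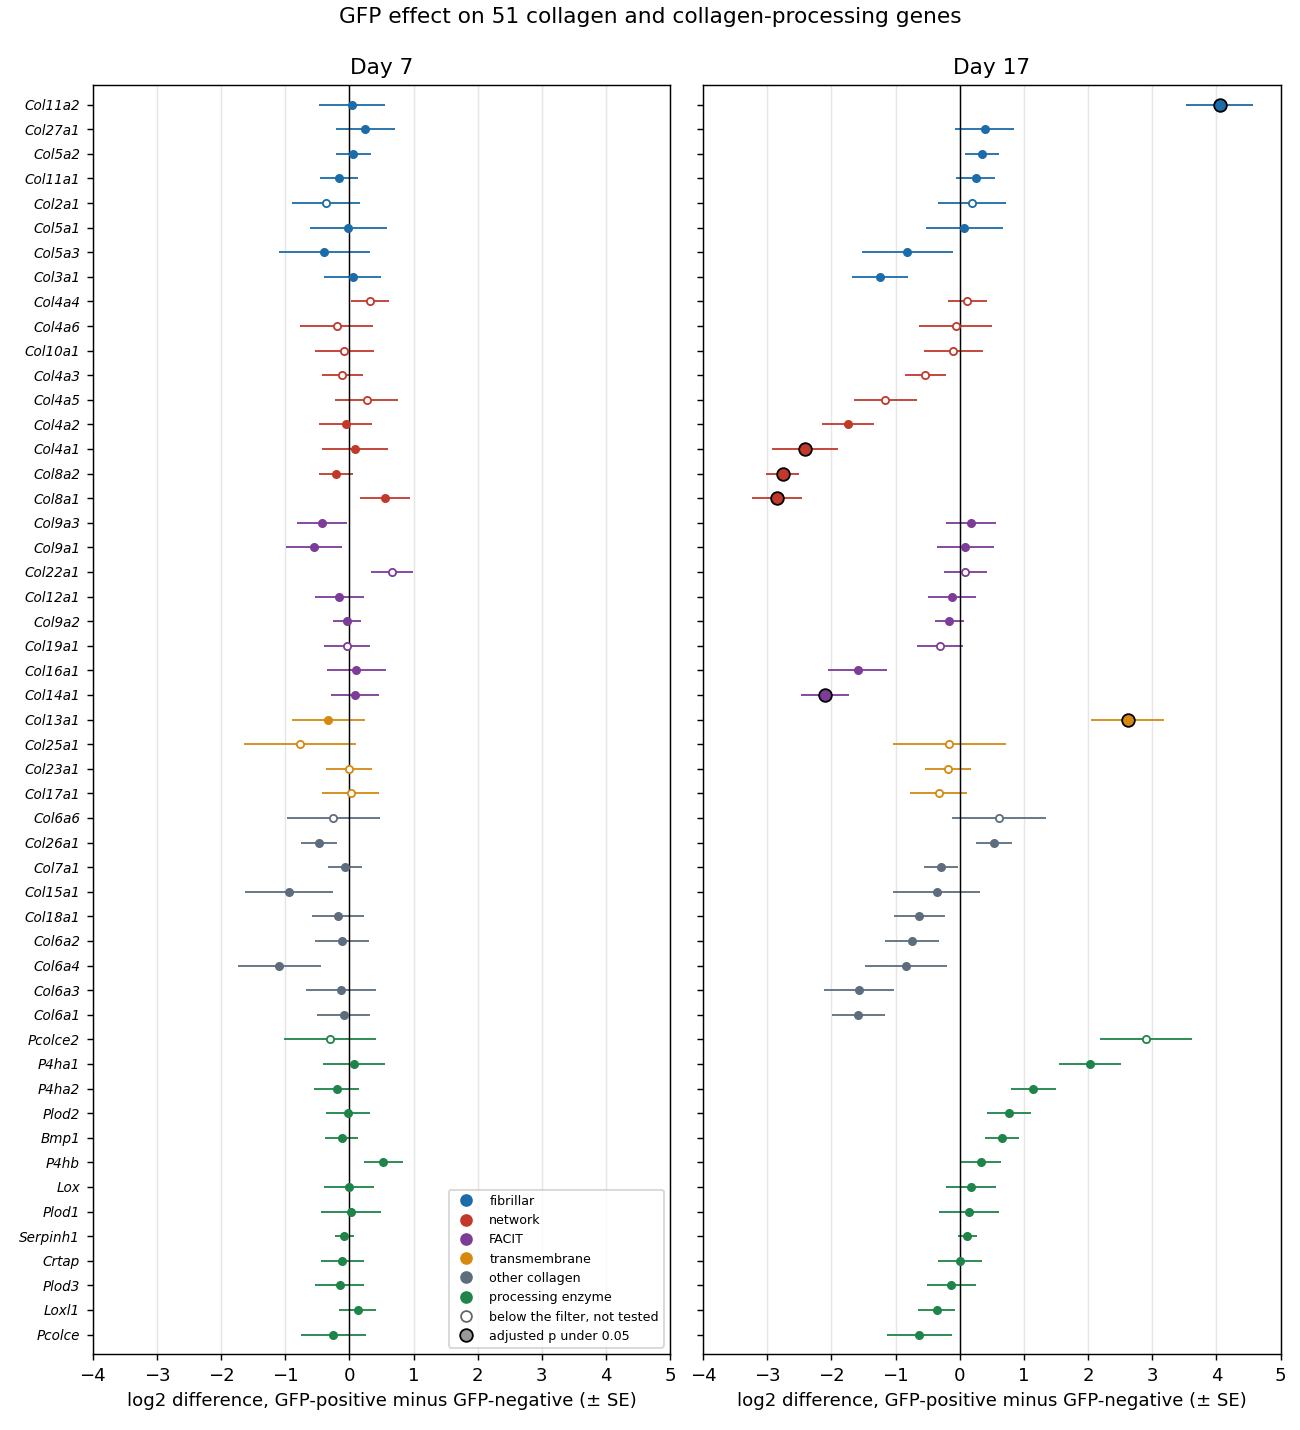
Each point is the log2 difference between GFP-positive and GFP-negative samples for 1 of the 51 genes, with its standard error (n = 3 per fraction), at day 7 on the left and day 17 on the right. Colours give the class, open points were not tested and black rims mark an adjusted p under 0.05. The day 7 points lie around 0, while at day 17 Col11a2 reaches 4.05 and Col8a1 -2.85.

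The type VIII chains, which build hexagonal lattices known from Descemet's membrane and vessel walls, gave the clearest network result. Col8a1 had normalised intensities of 2363, 1791 and 5248 in the GFP-positive samples of Exp100, Exp105 and Exp106, against 26141, 17010 and 19368 in the GFP-negative ones and 22538, 34053 and 20350 in unsorted cells. Every GFP-positive sample lay below every other day 17 sample. The difference between the fractions was -2.85 ± 0.39, or 7.21-fold (adjusted p = 0.00322). Col8a2, measured on array B, stood at 843.5, 1176 and 1040 in GFP-positive and 7176, 8898 and 5420 in GFP-negative samples. The fractions did not overlap, and the difference was -2.76 ± 0.26, or 6.76-fold (adjusted p = 0.000458). Both chains kept an adjusted p under 0.05 with any single sample left out. Within Exp100, Exp105 and Exp106 the difference of Col8a1 was -3.45, -3.22 and -1.88 and that of Col8a2 -3.04, -2.89 and -2.35.

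The basement membrane chains Col4a1 and Col4a2, which pair in the widespread type IV trimer, ran alongside. Col4a1 stood at 893.7, 857.8 and 2111 in GFP-positive samples, against 6898, 5680 and 6662 in GFP-negative and 7269, 7316 and 9501 in unsorted ones. The GFP-positive samples lay below all others of that day, with Exp106 the highest of them, and the difference was -2.41 ± 0.51, or 5.31-fold (adjusted p = 0.0422; 0.000955 with the experiment as a block). The call of Col4a1 was lost when any sorted sample of day 17 except the GFP-positive one of Exp106 was left out, with adjusted p from 0.086 to 0.163. Col4a2 stood at 995.7, 1075 and 1599 in GFP-positive and 4072, 3252 and 5111 in GFP-negative samples. These too did not overlap, but the difference of -1.74 ± 0.41 was called only with the block (adjusted p = 0.0679; 0.00505 with it), and a second probe set gave -1.09. The type IV chains Col4a3 to Col4a6 and Col10a1, the hypertrophic cartilage collagen, were not tested: their highest value in any sample was 496.7.

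The sequences around the annotated start sites are shown for 3 pairs of genes, the chains Col8a1 and Col8a2, the chains Col4a1 and Col4a2 and the catalytic subunits P4ha1 and P4ha2, and for Col11a2, which had the widest difference. All 7 were called at day 17 with the block, and they were chosen after their values were seen. They come from RefSeq on GRCm38.p6, where 39 of the 51 genes had an entry, and run from 250 bases before the start to 50 after it, 5′ to 3′ on the gene's strand. Capitals mark matches on either strand to 5 motifs: the TATA box (TATAAA), the CCAAT box (CCAAT), the GC box (GGGCGG), the core of the hypoxia response element (ACGTG) and the Runx core (TGTGGT). None of these motifs contains another, and neighbouring matches may overlap.
Col8a1, chr16:57754688-57754987, minus strand: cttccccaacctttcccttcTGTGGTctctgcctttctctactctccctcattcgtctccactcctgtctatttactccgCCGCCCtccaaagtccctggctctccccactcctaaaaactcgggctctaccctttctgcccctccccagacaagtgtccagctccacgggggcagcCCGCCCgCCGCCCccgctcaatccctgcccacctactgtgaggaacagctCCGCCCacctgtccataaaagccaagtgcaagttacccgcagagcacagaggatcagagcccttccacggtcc
Col8a2, chr4:126286544-126286843, plus strand: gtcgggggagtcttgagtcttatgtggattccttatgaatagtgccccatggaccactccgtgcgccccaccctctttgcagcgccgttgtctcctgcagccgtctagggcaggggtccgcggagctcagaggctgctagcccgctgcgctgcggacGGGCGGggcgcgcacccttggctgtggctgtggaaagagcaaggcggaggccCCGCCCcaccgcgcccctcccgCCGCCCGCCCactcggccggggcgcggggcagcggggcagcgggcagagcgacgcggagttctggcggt
Col4a1, chr8:11312777-11313076, minus strand: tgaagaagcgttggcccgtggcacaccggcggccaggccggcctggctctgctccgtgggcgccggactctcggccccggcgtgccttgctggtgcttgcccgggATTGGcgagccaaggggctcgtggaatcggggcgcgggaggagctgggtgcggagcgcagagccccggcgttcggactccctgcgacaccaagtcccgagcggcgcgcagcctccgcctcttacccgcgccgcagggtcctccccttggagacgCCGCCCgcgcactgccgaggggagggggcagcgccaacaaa
Col4a2, chr8:11312555-11312854, plus strand: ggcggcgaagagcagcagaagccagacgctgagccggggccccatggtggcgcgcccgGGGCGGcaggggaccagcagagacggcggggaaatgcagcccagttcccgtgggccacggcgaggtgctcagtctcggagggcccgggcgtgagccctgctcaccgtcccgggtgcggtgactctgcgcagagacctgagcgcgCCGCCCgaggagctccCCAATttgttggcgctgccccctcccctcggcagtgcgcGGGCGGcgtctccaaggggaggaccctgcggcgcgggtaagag
Col11a2, chr17:34038888-34039187, plus strand: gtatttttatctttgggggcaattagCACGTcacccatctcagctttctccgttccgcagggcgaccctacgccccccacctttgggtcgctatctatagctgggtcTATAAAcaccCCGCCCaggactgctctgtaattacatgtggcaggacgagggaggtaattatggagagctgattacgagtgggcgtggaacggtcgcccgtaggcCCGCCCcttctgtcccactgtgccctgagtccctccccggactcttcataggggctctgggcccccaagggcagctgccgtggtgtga
P4ha1, chr10:59323046-59323345, plus strand: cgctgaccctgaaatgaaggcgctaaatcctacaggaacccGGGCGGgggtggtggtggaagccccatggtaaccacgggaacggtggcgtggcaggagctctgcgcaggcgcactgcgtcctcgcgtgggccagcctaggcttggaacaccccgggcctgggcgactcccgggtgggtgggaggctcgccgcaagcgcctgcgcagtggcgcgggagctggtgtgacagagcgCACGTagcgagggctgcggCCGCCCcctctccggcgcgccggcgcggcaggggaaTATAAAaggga
P4ha2, chr11:54100674-54100973, plus strand: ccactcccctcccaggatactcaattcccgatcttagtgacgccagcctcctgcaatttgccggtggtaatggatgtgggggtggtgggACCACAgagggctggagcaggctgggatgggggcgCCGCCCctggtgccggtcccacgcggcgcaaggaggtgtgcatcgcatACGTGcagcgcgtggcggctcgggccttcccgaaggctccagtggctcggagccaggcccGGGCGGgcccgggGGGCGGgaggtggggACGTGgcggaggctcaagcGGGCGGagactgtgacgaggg
Both type VIII windows held the GC box 4 times, as did that of P4ha2, and the window of Col4a1 held it 1 time and that of Col4a2 3 times. Over the 32851 promoter windows of the table, 35.7% held the GC box, 37.4% the CCAAT box, 19.6% the hypoxia response core, 16.8% the Runx core and 13.6% the TATA box. The hypoxia response core stood 1 time in the windows of P4ha1 and Col11a2 and 2 times in that of P4ha2, and the Runx core 1 time in those of Col8a1 and P4ha2. The Col4a1 gene shares its promoter with Col4a2, which starts 21 bases away on the opposite strand, and their windows share 78 bases. The share of G and C was 60.3% for Col8a1 and 71.7% for Col8a2, 74.0% for Col4a1 and 73.7% for Col4a2, 59.0% for Col11a2 and 70.3% for each of P4ha1 and P4ha2, against a median of 52.7% over all windows. These matches describe the letters alone.

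Among the fibrillar collagens, Col11a2 was set apart from the rest. This chain of type XI collagen, best known from cartilage, stood at 8786, 5471 and 5307 in GFP-positive samples, at 136.8, 904 and 325.2 in GFP-negative ones and at 2483, 3834 and 1474 in unsorted cells of day 17. At day 7 no sample exceeded 128.7. The day 17 fractions did not overlap, and the difference of 4.05 ± 0.52 was the widest of all 51 genes on this scale (adjusted p = 0.00221). Its size depends on the offset, since 2 of the 3 GFP-negative values lay below the median of their array, and it ran from 3.46 to 4.70 over the alternatives. It was 5.71, 2.56 and 3.90 within Exp100, Exp105 and Exp106. A second Col11a2 probe set, on array C, lay above the median on 12 of 12 sorted arrays and gave 0.46 ± 0.45, which was not called (adjusted p = 0.843), so the call of Col11a2 rests on 1 of its 2 probe sets.

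The other fibrillar chains passed no test without the block. Col3a1, the partner of type I in soft tissue fibrils, stood at 18486, 17295 and 34562 in GFP-positive and 48170, 40355 and 74501 in GFP-negative samples. These did not overlap, and Exp106 was the highest in both fractions. The difference was -1.24 ± 0.44 (adjusted p = 0.269; 0.0025 with the block), and further probe sets gave -2.04 and -1.14. Col5a1, by contrast, stood at 11898, 11039 and 29382 and at 10223, 11451 and 28305, which overlapped throughout (0.07 ± 0.60). Col5a2 (0.35 ± 0.27), Col11a1 (0.25 ± 0.30) and Col27a1 (0.39 ± 0.46) differed little, and Col5a3 gave -0.82. A second Col27a1 probe set gave -1.66.

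Col13a1, the type XIII chain found at cell adhesion sites and the neuromuscular junction, was the tested transmembrane collagen. Its GFP-positive samples stood at 2864, 3030 and 2904, its GFP-negative ones at 523.8, 796.3 and 210.9, and the unsorted ones at 1179, 1382 and 735.9, between the fractions within each experiment. The difference was 2.62 ± 0.57 (adjusted p = 0.0483; 0.0132 with the block), and a second probe set gave 2.71. The call rested on the full set of samples: leaving out any 1 of the 6 sorted day 17 samples ended it, and without Exp106 the difference was 2.13 (adjusted p = 0.0922). Col17a1 and Col23a1 lay below the median on all 12 sorted arrays, and Col25a1 on 10 of them.

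Among the 6 tested FACIT collagens 1 was called. Col14a1 (type XIV, undulin), of dense connective tissue, stood at 261.7, 462.8 and 409.7 in GFP-positive samples, at 1986, 1536 and 1566 in GFP-negative and at 1853, 1410 and 1314 in unsorted ones. The GFP-positive samples lay below all others, and the difference was -2.10 ± 0.37 (adjusted p = 0.0148), with -3.70 and -1.89 from further probe sets. The call was lost without the GFP-negative (-1.98, adjusted p = 0.0883) or the GFP-positive sample (-1.88, adjusted p = 0.0643) of Exp100. Col16a1 stood at 4551, 2320 and 3875 against 13854, 12480 and 6529 (-1.59 ± 0.46, adjusted p = 0.144; 0.0386 with the block). Col12a1 (-0.12 ± 0.38), Col9a1 (0.09 ± 0.44), Col9a2 (-0.16) and Col9a3 (0.17) differed little, and Col19a1 and Col22a1 were not tested, with at most 284.9 in any sample.

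Type VI collagen, the beaded filament of the pericellular matrix, was measured by 4 tested chains. Col6a1 stood at 10923, 8368 and 12549 in GFP-positive and 27499, 31134 and 36095 in GFP-negative samples, and Col6a3 at 9427, 6913 and 8550 against 28481, 24342 and 21028. Neither pair of fractions overlapped. The differences of -1.58 ± 0.41 and -1.57 ± 0.55 were called only with the block (adjusted p = 0.0974 and 0.273; 0.00298 and 0.00668 with it). Col6a2 gave -0.75 and Col6a4 -0.83, both uncalled in either fit. Col15a1 (-0.36), Col18a1 (-0.63), Col7a1 (-0.29) and Col26a1 (0.53) were not called.

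Among the processing genes, the catalytic subunits of prolyl 4-hydroxylase showed the widest tested differences. P4ha1 stood at 41553, 32211 and 10960 in GFP-positive, 6339, 9427 and 3561 in GFP-negative and 13223, 23381 and 4286 in unsorted samples. The fractions did not overlap, Exp106 was lowest in each of them, and the difference of 2.03 ± 0.48, or 4.08-fold, missed the threshold (adjusted p = 0.0648) but passed it with the block (0.00106) and without Exp106 (2.24, adjusted p = 0.00196). P4ha2 stood at 12419, 12419 and 12074 against 4457, 5801 and 6540 (1.15 ± 0.35, adjusted p = 0.178; 0.00415 with the block). Further probe sets gave 1.84 and 2.38 for P4ha1 and 1.13 for P4ha2. Their shared subunit P4hb differed by 0.33.

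The remaining enzymes differed less. The lysyl hydroxylase Plod2 gave 0.77 ± 0.34 (adjusted p = 0.435), Plod1 0.14 and Plod3 -0.13. The collagen chaperone Serpinh1 stood at 48606, 50754 and 61433 against 45519, 45519 and 56897, with the fractions overlapping, and differed by 0.12 ± 0.15. Crtap gave -0.00, the crosslinking enzymes Lox 0.18 ± 0.39 and Loxl1 -0.36, the procollagen C-proteinase Bmp1 0.66 ± 0.26 (adjusted p = 0.346) and its enhancer Pcolce -0.63 ± 0.51. Pcolce2, a second enhancer, is singled out after its values were seen: it stood at 4659, 4607 and 790.2 in GFP-positive and 467, 645.1 and 96.25 in GFP-negative samples, higher within each experiment by 3.23, 2.78 and 2.68. It did not pass the filter on dim probe sets and was not tested.

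**Figure D2:**
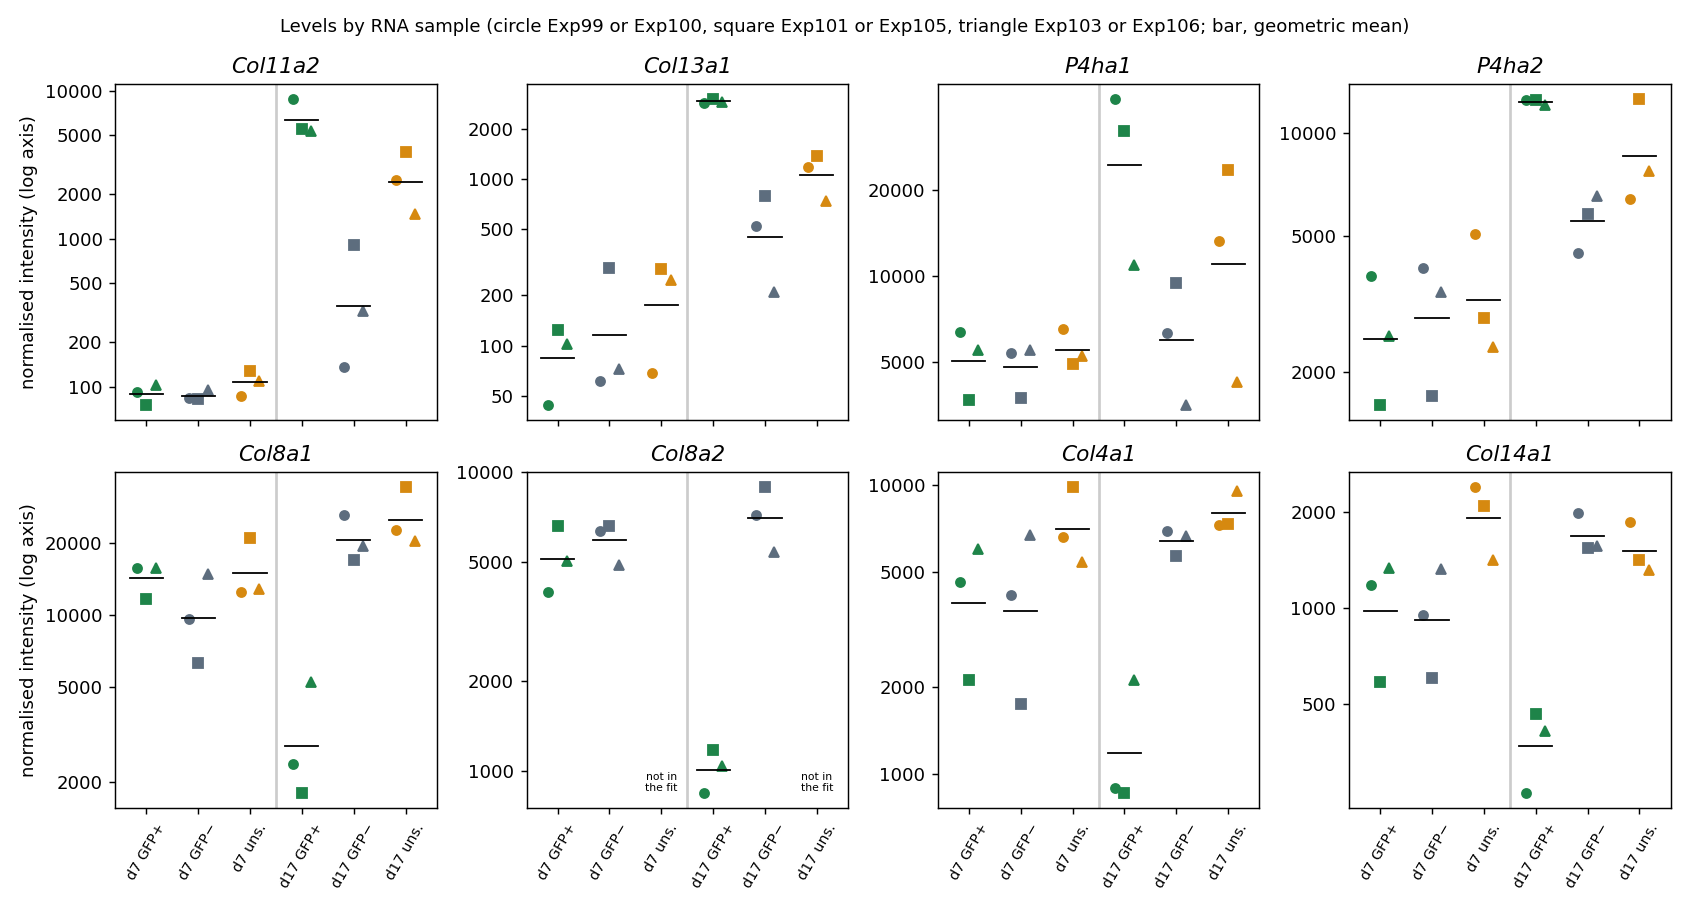
Normalised intensity on a log axis for 8 genes in each RNA sample, by group (3 experiments per group, marked by symbol; bars, geometric means); Col8a2 was on array B, where unsorted RNA was not in the fit. Col11a2 and Col13a1 sit highest in the day 17 GFP-positive samples, where Col8a1, Col8a2, Col4a1 and Col14a1 sit lowest.

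Because each experiment gave 1 sample to each fraction, the difference within each experiment is also shown. The 13 genes called with the block were called from these same differences, so their shared direction describes the choice of genes and adds no support. The 6 genes called higher or lower without Exp106 (backgrounds of 2.17% and 4.26%) were Col11a2 and P4ha1 in the first direction and Col8a1, Col8a2, Col4a1 and Col14a1 in the second. Over all genes of the set, 27 of the 33 further tested probe sets had the sign of the one used in this comparison.

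**Figure D3:**
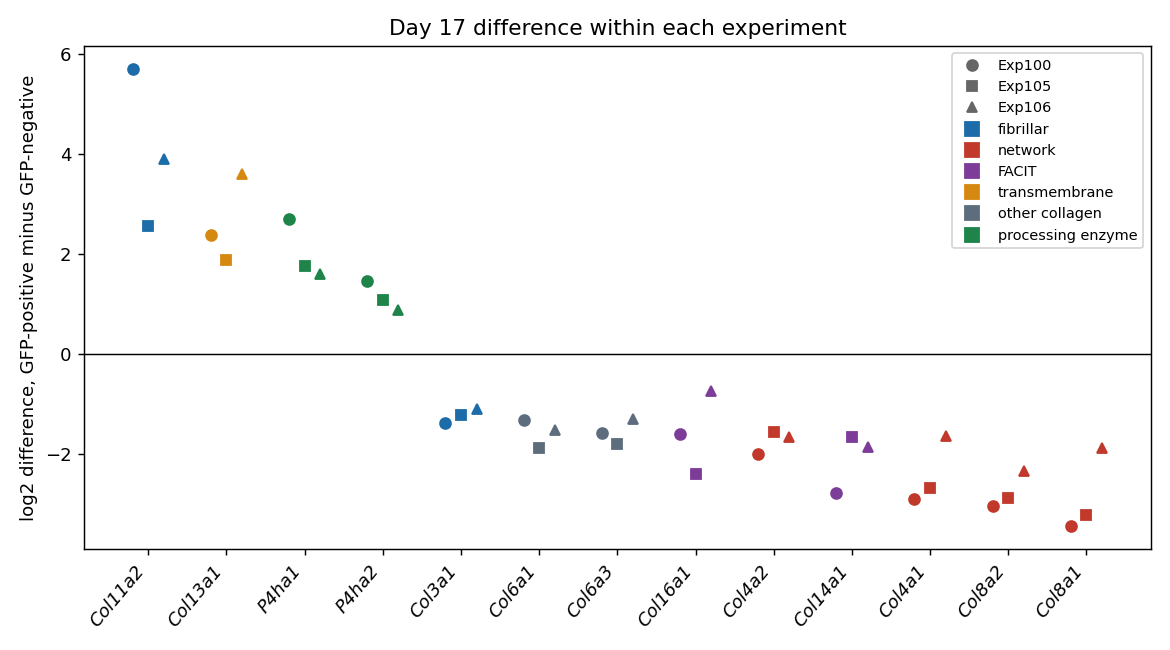
Log2 difference between the GFP-positive and GFP-negative samples of the same experiment at day 17, for the 13 genes called with the experiment as a block; symbols give the experiment and colours the class. The genes were chosen by that fit, which fixes their shared direction; the plot shows the spread in size, with Col11a2 from 2.56 to 5.71 and Col3a1 from -1.38 to -1.11.

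The change of the GFP effect between the days was tested as an interaction. The type VIII chains passed it: the effect on Col8a1 at day 17 minus that at day 7 was -3.41 ± 0.56 (adjusted p = 0.0331), and for Col8a2 it was -2.55 ± 0.37 (adjusted p = 0.0237). These 2 genes were called lower against a background of 0.32%, and none was called higher, against 0.0283%. Fewer samples ended both calls: Col8a1 lost its call in 11 of the 12 fits without 1 sorted sample (adjusted p from 0.0511 to 0.115), and Col8a2 lost its call in 6, those without the day 7 GFP-negative sample of Exp99, Exp101 or Exp103, the day 7 GFP-positive sample of Exp101 or Exp103, or the day 17 GFP-negative sample of Exp100 (0.0536 to 0.0875). Both were called without the whole of Exp106, together with Col11a2 (4.09, adjusted p = 0.0487) and P4ha1 (2.17, adjusted p = 0.0202), against backgrounds of 0.566% higher and 1.5% lower. Col11a2 passed the filter on day 17 arrays alone, so the number called higher is not independent of the filter.

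With the experiment as a block, 3 genes had a higher effect at day 17 (background 0.462%) and 6 a lower one (background 1.21%). The higher ones were Col11a2 (4.02, adjusted p = 0.0569 without the block and 0.0491 with it), P4ha1 (1.96, 0.563 and 0.018) and P4ha2 (1.34, 0.647 and 0.0258). Here too the number of higher genes is not independent of the filter, which Col11a2 passed on day 17 arrays alone. The second Col11a2 probe set, on array C, was not called between the day 17 fractions. Besides type VIII, the lower ones were Col14a1 (-2.19, 0.176 and 0.0259), Col3a1 (-1.29, 0.861 and 0.0264), Col4a1 (-2.50, 0.37 and 0.012) and Col6a1 (-1.50, 0.694 and 0.045). Col13a1 gave 2.96 ± 0.81 (adjusted p = 0.308; 0.0777 with the block) and Col4a2 -1.68 ± 0.58. The remaining chains and enzymes named in every comparison lay between -0.38 for Pcolce and 0.79 for Plod2. The fibrillar median was 0.22.

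Between the days, 10 of the 38 tested genes were higher at day 17 in GFP-positive cells (background 2.53%) and 2 were lower (4.51%). Of the higher ones, Col11a2, Col13a1, Col27a1 and Col15a1 passed the filter on day 17 arrays alone, so this number is not independent of the filter. Fitted on the GFP-positive samples alone, 7 were called. The higher genes were the fibrillar chains Col11a2, Col11a1 and Col27a1, the FACIT chain Col9a1, the transmembrane Col13a1, Col15a1 and Col26a1 of the other collagens, and the enzymes P4ha1, P4ha2 and Bmp1. The lower genes were Col8a1 and Col8a2. All 8 fibrillar collagens, tested or not, had a difference above 0, with a median of 1.02, and the 4 tested network collagens had one below 0, from -2.32 to -0.99. Over all genes the median was -0.01. The fibrillar values from day 7 and day 17 differ in reporter and additions as well as in time.

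Col11a2 rose from 92.89, 75.75 and 103.1 in Exp99, Exp101 and Exp103 to the day 17 values given above, by 5.71 ± 0.52 (adjusted p = 0.000163). The day 7 values of this probe set lay below the median of their arrays, so the size depends on the offset: it ran from 4.88 to 6.03 over the alternatives. The Col11a2 probe set on array C, above the median throughout, gave 1.70. Col13a1 rose from 44.2, 124.5 and 101.6 to 2864, 3030 and 2904, by 4.67 ± 0.57 (adjusted p = 0.000883; 3.82 to 5.02 over the alternatives), also from day 7 values below the median, and its second probe set gave 5.11. These 2 genes kept the call in all 15 alternatives. Col11a1, the other main type XI chain, stood at 4212, 3694 and 5948 at day 7 and 11074, 14149 and 9330 at day 17 (1.32 ± 0.30, adjusted p = 0.0268), without overlap. Col11a1 lay above the median on every sorted array. Col27a1, a fibrillar chain of cartilage and growth plate, stood at 523.2, 489 and 515.9 and at 2423, 2734 and 1216 (1.91 ± 0.46, adjusted p = 0.0316). Col9a1 stood at 1227, 695.8 and 1047 and at 3361, 3376 and 5487 (2.0 ± 0.44, adjusted p = 0.0219), and its other probe set, dim on all but 1 of 12 sorted arrays, gave -0.16. Type IX collagen, to which Col9a1 belongs, decorates fibrils of types II and XI. Col15a1, a basement membrane zone collagen, stood at 139, 45.19 and 65.14 and at 346.7, 587.2 and 1369 (2.67 ± 0.68, adjusted p = 0.0432). Col26a1 stood at 513, 463.5 and 351 and at 1304, 1213 and 1493 (1.54 ± 0.28, adjusted p = 0.00811). In each of these genes the days did not overlap. The day 7 values of Col27a1, Col15a1 and Col26a1 in this fraction also lay below the median of their arrays. For Col15a1 the size depends on the offset, and 2 of its 3 day 17 values lay above the median.

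The hydroxylase subunits and the C-proteinase rose with them in the GFP-positive fraction. P4ha1 stood at 6405, 3686 and 5504 at day 7 and rose 4.81-fold (2.27 ± 0.48, adjusted p = 0.0178), with the day 17 sample of Exp106, at 10960, the nearest to day 7. P4ha2 stood at 3818, 1611 and 2558 and rose 4.86-fold (2.28 ± 0.35, adjusted p = 0.00342). Bmp1 stood at 1840, 1604 and 1821 at day 7 and 4117, 3019 and 4504 at day 17 (1.11 ± 0.26, adjusted p = 0.0272), and its further probe sets gave 1.13 and 1.54. Serpinh1 stood at 34562, 35116 and 41553 at day 7, below all 3 day 17 values, but was not called (0.53 ± 0.15, adjusted p = 0.0718; 0.0385 without Exp106). Plod2 (0.86 ± 0.34), Pcolce (0.50 ± 0.51) and Lox (-0.34 ± 0.39) were not called either.

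Col8a1 and Col8a2 fell in the GFP-positive fraction, from 15695, 11682 and 15644 by -2.32 ± 0.39 or 5-fold (adjusted p = 0.00567), and from 3981, 6626 and 5056 by -2.30 ± 0.26 or 4.93-fold (adjusted p = 0.000445). Both kept the call in all 15 alternatives. Markers of other cells moved with them: the smooth muscle and pericyte sum was 53219 to 59484 at day 7 and 12274 to 12906 at day 17 in this fraction, with 4 of 5 tested genes called lower (Tagln -3.10, Acta2 -1.84). The fibroblast sum was 14045 to 19131 and 8409 to 9646, with 2 of 6 tested genes called lower, and the macrophage sum 6947 to 7796 and 24467 to 97092, with 7 of 14 called higher. The osteoblast sum was 631.7 to 2841 and 74101 to 107656, with 3 of 3 called higher. Their part in the result was not tested. The basement membrane chains pointed the same way, with -1.70 ± 0.51 for Col4a1 (adjusted p = 0.0861; 0.0207 without Exp106) and -0.99 ± 0.41 for Col4a2. Col14a1 gave -1.33 ± 0.37 (adjusted p = 0.0605; 0.0406 without Exp106). Without Exp106, 10 genes were higher (background 6.84%) and 4 lower (9.71%): Serpinh1, Col4a1 and Col14a1 joined, and Col15a1 left (2.16, adjusted p = 0.0809). Col3a1 (0.09), Col5a1 (1.03), Col5a2 (0.55), Col12a1 (0.01) and Col6a1 (-0.08) were not called.

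Several of these calls depended on single samples. Col15a1 lost its call without any 1 of the 6 GFP-positive samples (adjusted p from 0.0508 to 0.137). Bmp1 lost it without any of the 6 except Exp105 (0.0516 to 0.0969) and Col27a1 without any except Exp106 (0.0924 to 0.106). Col11a1 lost it without Exp99, Exp101, Exp100 or Exp105 (0.0684 to 0.105), P4ha1 without Exp101, Exp103, Exp100 or Exp105 (0.055 to 0.0766), and Col9a1 without any of the day 7 samples Exp99, Exp101 and Exp103 (0.0525 to 0.0903). The direction stayed the same in each case.

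In GFP-negative cells no gene of the set was called between the days, against a background of 0.452% higher and 0.33% lower. By limma 14 of the 38 tested genes had an unadjusted p under 0.05, as had 2516 of the 22099 probe sets. All 8 fibrillar collagens again had a difference above 0, with a median of 0.93. The 4 tested network chains ran from 0.25 for Col8a2 to 1.09 for Col8a1, where in the GFP-positive fraction they ran from -2.32 to -0.99. The difference between these changes is the interaction tested above. The widest differences were 2.14 ± 0.46 for Col16a1 (adjusted p = 0.0672), 2.08 ± 0.68 for Col15a1, 1.77 ± 0.46 for Col27a1 (adjusted p = 0.141), 1.71 ± 0.57 for Col13a1, 1.09 ± 0.39 for Col8a1 and 0.94 ± 0.35 for P4ha2. Col16a1 stood at 3582, 2131 and 1685 at day 7 and at 13854, 12480 and 6529 at day 17, and Col27a1 at 421.7, 483.6 and 374.8 and at 2030, 2499 and 693.6. Neither overlapped between the days, and Exp106 was the lowest day 17 sample of both. Without Exp106 they were the 2 genes called (2.47, adjusted p = 0.02, and 2.32, adjusted p = 0.00122), both higher, against backgrounds of 2.11% higher and 1.86% lower. The day 7 values of Col27a1 lay below the median of their arrays. It passed the filter on day 17 arrays alone, so this number is not independent of the filter. Leaving out the GFP-negative sample of Exp106 alone gave the call to Col27a1 only.

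Other values in the GFP-negative fraction were 1.37 ± 0.44 for Col3a1, 1.41 ± 0.41 for Col6a1, 1.69 ± 0.52 for Col11a2, 0.94 for Col5a1, 0.91 for Col11a1, 0.80 for Col4a1, 0.69 for Col4a2 and 0.26 for Col5a2. The chaperone and enzymes lay lower, at 0.88 for Pcolce, 0.34 for Bmp1, 0.33 for Serpinh1, 0.31 for P4ha1, 0.06 for Plod2 and -0.51 for Lox, and Col12a1 at -0.03. For Col3a1 the GFP-negative samples stood at 31824, 10047 and 25989 at day 7 and at 48170, 40355 and 74501 at day 17, without overlap. Marker sums of other cells differed between the days in this fraction too. The fibroblast sum was 17390 to 23814 at day 7 and 32403 to 46598 at day 17, with 1 of 6 tested genes called higher (Sfrp2, 2.38), and the macrophage sum 15348 to 40757 and 78821 to 139541, with none of 14 called. The cartilage sum was 2555 to 3628 and 12428 to 28618, with 1 of 5 called higher (Matn4, 3.14) and a median of 0.05 over all 10 genes. The skeletal muscle sum was 5741 to 8161 and 2159 to 5137, with 1 of 6 called lower (Myl1, -2.42). The osteoblast genes rose as well: their sum was 576.9 to 1324 and 16317 to 36250, with 2 of 3 called higher (Ibsp, 5.93, and Alpl, 3.79). Their part in these values was not tested.

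In unsorted cells, on array A, 4 of the 31 tested genes were higher at day 17 (background 3.16%) and none was lower (2.89%). Col11a2 stood at 87.05, 128.7 and 109.3 at day 7 and at 2483, 3834 and 1474 at day 17, a rise of 4.13 ± 0.49 (adjusted p = 0.000196) that was called in all 15 alternatives. Col13a1 stood at 68.63, 287 and 246.5 and at 1179, 1382 and 735.9 (2.40 ± 0.57, adjusted p = 0.0228). In both genes all 3 day 17 samples lay above all day 7 samples, with Exp106 the lowest of them. The day 7 values of both genes lay below the median of their arrays, in sorted and unsorted samples alike. Both thus passed the filter on day 17 arrays alone, so the number called is not independent of the filter. The size of both rises depends on the offset. Col26a1 stood at 555, 429 and 506.2 and at 1029, 1003 and 1558 (1.19 ± 0.26, adjusted p = 0.0162). P4ha2 stood at 5075, 2876 and 2377 and at 6405, 12549 and 7758 (1.38 ± 0.37, adjusted p = 0.0409). The days did not overlap in these genes either. Without Exp106, 5 were higher (backgrounds 6.17% higher and 7.6% lower), with P4ha1 added (1.66, adjusted p = 0.00258, against 0.99 ± 0.55 with it). Fitted on the unsorted samples alone, Col11a2 was the 1 gene called. Single samples ended 3 of the calls: that of Col13a1 without Exp99, Exp103, Exp100 or Exp105 (0.0541 to 0.105), that of Col26a1 without Exp101, Exp103 or Exp106 (0.0609 to 0.0752) and that of P4ha2 without Exp101, Exp103, Exp105 or Exp106 (0.0948 to 0.192).

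None of the network collagens was called between the days in unsorted cells. Col8a1 stood at 12386, 20901 and 12842 at day 7 and at 22538, 34053 and 20350 at day 17 (0.74 ± 0.38, adjusted p = 0.26), and Col4a1 (0.18 ± 0.46) and Col4a2 (0.23 ± 0.39) lay near 0. The fibrillar chains gave 0.85 for Col3a1, 1.0 for Col5a1, 0.15 for Col5a2 and 0.59 for Col11a1, and Col6a1 gave 1.17 ± 0.39 (adjusted p = 0.102). Col9a1 (1.24) and Col15a1 (1.79) were the widest of the FACIT and other collagens. Bmp1 (0.60), Serpinh1 (0.23), Pcolce (0.23) and Lox (-0.58) were not called. Col12a1 gave -0.15, but 0.44 without Exp106. With the intensities as deposited, the median of all genes in this comparison moved from -0.09 to 0.05 over the probe sets tested, and these differences are relative to that scale. Cell type markers changed between the days in unsorted cells too. Called higher were 12 of 15 tested macrophage, 3 of 3 osteoblast, 1 of 5 fibroblast and 1 of 2 cartilage genes (background 3.16%). Called lower were 3 of 6 skeletal muscle genes (2.89%), and none of 5 smooth muscle and pericyte genes was called. The part of these cell types in the result was not tested.

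**Figure D4:**
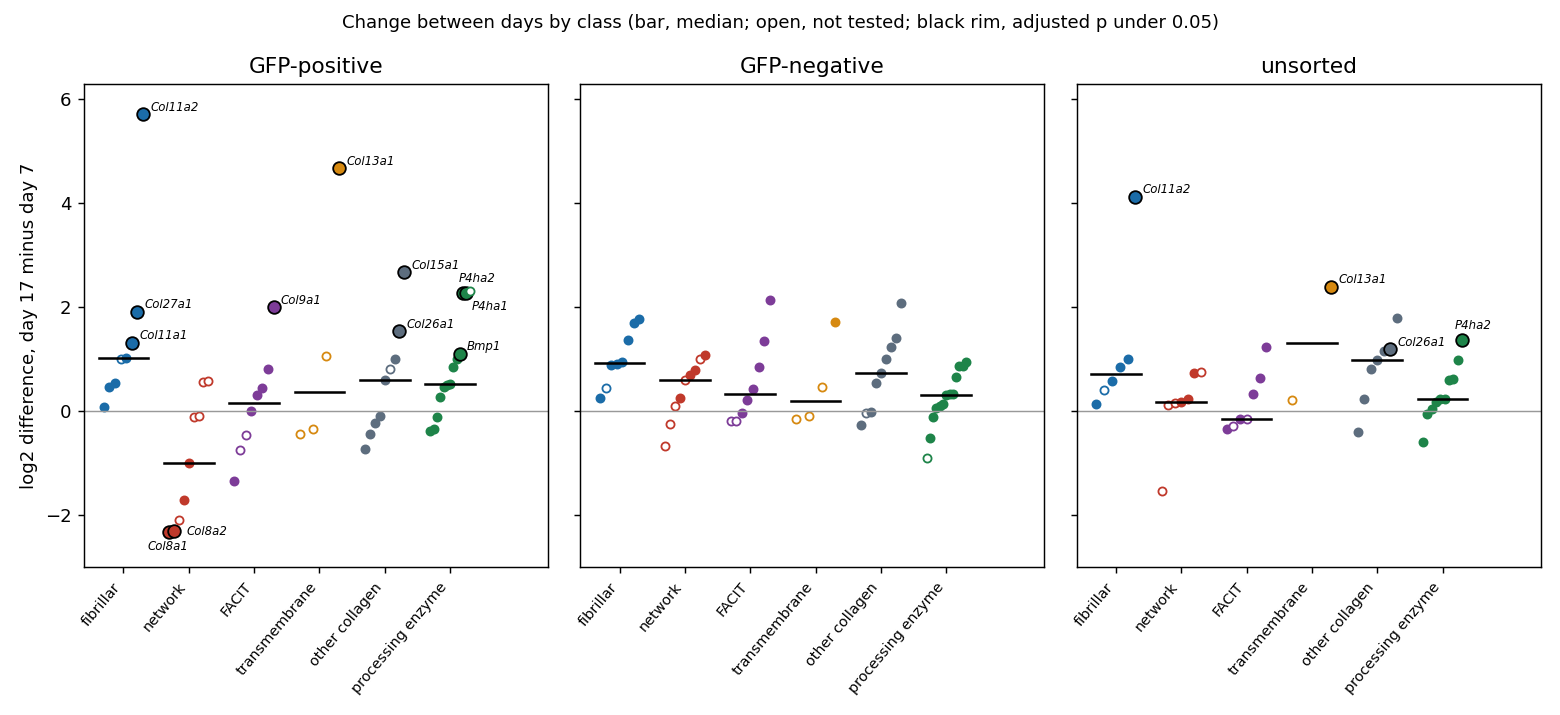
Log2 difference between day 17 and day 7 for each gene by class, in GFP-positive, GFP-negative and unsorted cells (3 samples per group; bars, class medians; open points, not tested; black rims, adjusted p under 0.05). The tested network points lie from -2.32 to -0.99 in GFP-positive cells and from 0.25 to 1.09 in GFP-negative cells, while the fibrillar bars lie at 1.02 and 0.93.

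The unsorted cells were set against the mean of both fractions, on array A. With the intensities as deposited, the median of all genes moved from -0.01 to 0.12 at day 7 and from -0.03 to 0.23 at day 17 in this comparison, and no call of a collagen or processing gene changed. At day 7 none of the 31 tested genes was called (backgrounds of 0% higher and 0% lower). By limma 59 probe sets had an unadjusted p under 0.05, and 3 of the genes were among them. The median over the 39 genes was 0.26, with 32 above 0, against -0.01 over all genes. The widest differences were 0.75 ± 0.24 for Col11a1, 0.90 ± 0.40 for Col4a1, 1.0 ± 0.29 for Col14a1, 1.12 ± 0.54 for Col15a1, 0.66 ± 0.49 for Col13a1 and 0.65 ± 0.40 for Pcolce, each with an adjusted p of 1. The chains and enzymes named throughout lay between 0.01 for Col12a1 and 0.70 for Col4a2 apart from these.

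At day 17 Col8a1 was higher in unsorted cells than in the mean of the fractions, by 1.71 ± 0.33 or 3.27-fold (adjusted p = 0.0205). It was the 1 gene called higher (background 1.58%), and none was called lower (0.106%). The call of Col8a1 was lost without the unsorted sample of Exp100 (1.79, adjusted p = 0.102) or Exp105 (1.49, 0.103) and without the GFP-negative sample of Exp105 (1.64, 0.0511). With the block, 7 genes were higher (background 6.61%) and none lower (6.4%): Col8a1, Col4a1 (1.52), Col4a2 (1.09), Col14a1 (0.89), Col6a1 (1.03), Col6a3 (1.34) and Col18a1 (0.88). Fitted on day 17 alone, no gene was called (Col8a1, adjusted p = 0.17). Without Exp106, Col8a1 (2.06) and Col4a1 (1.62, adjusted p = 0.039) were called, against backgrounds of 5.65% higher and 4.03% lower. The 7 genes called with the block and the genes lower in the GFP-positive fraction share samples. For Col8a1 and Col4a1 every unsorted value lay above every GFP-positive one. For a gene low in GFP-positive cells, unsorted cells can lie above the mean of the fractions without lying above the GFP-negative fraction. The unsorted values of Col8a1 (22538, 34053 and 20350) overlapped the GFP-negative ones (26141, 17010 and 19368). Those of Col14a1 lay below the GFP-negative value of the same experiment in Exp100, Exp105 and Exp106. Other differences were 0.65 for Col11a2, 0.60 for Col5a1, 0.49 for Col3a1, -0.13 for each of Col13a1 and Col12a1, -0.14 for P4ha1, -0.12 for Serpinh1 and -0.35 for P4hb. Without the unsorted sample of Exp106 Col12a1 turned to 0.46 and P4ha1 to 0.54.

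Genes that act with these in making collagen were followed by 4 lists. In the maturation list (hydroxylation, isomerases and sugar transfer in the endoplasmic reticulum), 16 of 21 genes were tested in sorted cells. Between the day 17 fractions none was called, with a median difference of 0.29, and with the block Pdia4, a disulfide isomerase, was called higher (0.68). The shares of all genes called, given above for each comparison, are the background for these counts: 0.424% higher and 1.54% lower between the day 17 fractions, and for day 17 against day 7 2.53% and 4.51% in GFP-positive, 0.452% and 0.33% in GFP-negative and 3.16% and 2.89% in unsorted cells. In GFP-positive cells 1 of the 16 was higher at day 17, the prolyl isomerase Fkbp11 (2.22 ± 0.39, adjusted p = 0.00715). In the list for export from the endoplasmic reticulum, 10 of 12 genes were tested. Creb3l1 (OASIS), a transcription factor that drives type I collagen secretion in bone, was the single gene higher at day 17 in GFP-positive cells (1.67 ± 0.25, adjusted p = 0.00271) and the single one in unsorted cells (1.34, adjusted p = 0.00705), and it was higher in the GFP-positive fraction at day 17 with the block (0.97, adjusted p = 0.0181).

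In the list for extracellular processing and crosslinking, 5 of 11 genes were tested. Fmod, a small proteoglycan that binds collagen fibrils, was lower in the day 17 GFP-positive fraction (-1.69 ± 0.25, adjusted p = 0.00531), the single gene called there over the 4 lists. It rose between the days in GFP-negative cells (1.68 ± 0.25, adjusted p = 0.0165) with its relatives Lum (1.17) and Dcn (1.20). In unsorted cells 2 of 3 tested genes of this list rose, Fmod (0.94) and Lum (0.94). In the list of receptors and turnover, 10 of 12 were tested. The collagen-binding integrin subunit Itga10 (4.0 ± 0.50, adjusted p = 0.000348), the protease Fap (1.89, adjusted p = 0.00259) and the collagenolytic cathepsin Ctsk (0.78) were higher at day 17 in GFP-positive cells, and the integrin subunit Itga1 was lower (-3.13 ± 0.80, adjusted p = 0.0324). In GFP-negative cells Fap (2.03, adjusted p = 0.01) and Ctsk (1.04) were higher, and in unsorted cells Fap was (1.62). Unsorted cells also had less of Aldh18a1, of proline synthesis (-1.13). At day 7, and for unsorted cells against the fractions at that day, no gene of the 4 lists was called, and none was in the interaction without the block.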

How the data were processed

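Total RNA of 18 samples was measured on 44 Affymetrix arrays, of which 18 were of type A, 13 of type B and 13 of type C. The deposited files held 1 intensity per probe set on a linear scale, in whole numbers of at least 10. How the authors summarised and scaled these deposited intensities, and the genome build behind their annotation, are not given in the sources used here. From the deposited intensities, log2(intensity + 32) was computed after quantile normalisation within array type. Only probe sets that exceeded the array median on 3 or more arrays of a fit were tested.

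Group means were fitted per array type in limma 3.58.1 (R 4.3.3, statmod 1.5.0), with a variance trend and Benjamini-Hochberg adjustment over all probe sets tested. Sorted fractions were fitted over 12 samples on A, B and C (22099 probe sets tested), and comparisons with unsorted cells over 18 samples on A (7455 probe sets tested). The arrays of types B and C for unsorted RNA (2 in all, both Exp106) entered no fit. The fit was tested on simulated data.

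Each gene is given by 1 probe set, taken from the first of A, B and C that has one, and there the brightest. Of 36701 probe sets, 29131 had 1 symbol in the platform annotation, 724 several and 6846 none. The text names genes past the threshold, the widest tested difference in each class, 17 fixed chains and enzymes, and the leading genes called in each pathway list. Members, lists and markers were chosen with earlier results of these data known.

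Experiment names pair the fractions. On array A the deviations of GFP-positive and GFP-negative samples of 1 experiment from their group means correlated at 0.109, 0.257 and 0.203 at day 7 and at 0.335, 0.447 and 0.593 at day 17. Between different experiments they ran from -0.244 to 0.0922 at day 7. At day 17 they were 0.422 and 0.323 between Exp100 and Exp105, and -0.54 to -0.409 between Exp106 and these. The day 17 values thus set Exp106 apart and show no closer pairing within Exp100 or Exp105. By the names, the replicate block (experiment) was fitted beside the main design for comparisons within a day. Other alternatives were the pseudocount, the filter, no normalisation, only the groups compared, no trend, a random block, and each sample or Exp106 left out. Sequences are RefSeq promoter windows on GRCm38.p6. Intensities carry no counts, and the number of arrays limits the precision.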

Additional observations from a re-analysis of the deposited data

Results flagged for a closer look

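The GFP effect differed between the days for both type VIII collagen chains by the interaction test in limma. For Col8a1 the effect at day 17 minus that at day 7 was -3.41 (adjusted p = 0.0331), and the difference between fractions had the same sign in 3 of 3 experiments at day 17. For Col8a2 it was -2.55 (adjusted p = 0.0237), with the same sign in 3 of 3 experiments at day 17. The signs at day 17 come from the same samples as the calls and add no support. When single samples were left out, both calls were lost in some fits, as given above. The days also differ in reporter, additions and experiments, and the cause was not tested.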

How the results depend on the processing

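Over 160 named results and 2766 alternatives, 2594 kept their side of the threshold, 100 fell short of it and 65 passed it. The other 7 changed sign with a difference larger than its standard error in either fit, none of these being a called difference. Changes of sign within the standard error were not counted as such. With the experiment as a replicate block the number of genes called changed from 6 to 13 between the day 17 fractions, from 2 to 9 for the change of the GFP effect and from 1 to 7 for unsorted against sorted cells at day 17. It was 0 in both day 7 comparisons. As a random block the counts were 14, 9 and 7. Without Exp106 they were 4 for the change of the GFP effect, 2 for day 17 against day 7 in GFP-negative cells and 2 for unsorted cells at day 17, and with the block as well 15 between the day 17 fractions, 12 for the change of the GFP effect and 2 for unsorted cells. Fitting only the groups compared gave 1 of 6 between the day 17 fractions, 7 of 12 between days in GFP-positive cells, 1 of 4 in unsorted cells and 0 of 1 for unsorted against sorted cells at day 17. The stricter filter at the 75th percentile gave 2 of 4 in unsorted cells. Leaving out 1 sample gave 3 to 7 genes between the day 17 fractions, 0 to 3 for the change of the GFP effect, 7 to 11 between days in GFP-positive, 0 to 1 in GFP-negative and 1 to 3 in unsorted cells, and 0 to 2 for unsorted against sorted cells at day 17. With 1 sample left out, Col3a1 ran from -0.46 (without the GFP-negative sample of Exp101) to 0.37 and Col5a2 down to -0.30 between the day 7 fractions. Col12a1 ran from -0.45 to 0.44 between days in unsorted cells, and for unsorted against sorted cells at day 17 Col12a1 ran from -0.42 to 0.46 and P4ha1 from -0.68 to 0.54, the upper value in each case without the unsorted sample of Exp106. Without the whole of Exp106, Col12a1 was 0.44 between days in unsorted cells and, with the replicate block, 0.28 for unsorted against sorted cells at day 17. Why these values moved was not tested, apart from the smaller number of samples in the fits that leave some out. The replicate block could not be fitted between days, since each experiment belongs to 1 day.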

Other observations

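The unsorted cells of Exp106 alone were also hybridised to arrays B and C, outside every comparison above. Their deposited intensities, set beside the fractions of the same experiment, give single values with no replicate. Col8a2 read 7179 in unsorted, 5294 in GFP-negative and 1153 in GFP-positive cells. The FACIT chain Col16a1 read 7290, 6482 and 4094 in the same order, and the fibrillar chain Col5a3 2176, 2070 and 1025. For these 3 chains the unsorted value was the highest. Col27a1 (1094, 749 and 1318), the lysyl hydroxylase Plod2 (5568, 5361 and 6569) and the propeptide-removal enhancer Pcolce2 (373, 113 and 908) were highest in GFP-positive cells, with the unsorted value between the fractions.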
